A study of Mus musculus with 8 samples.

Results

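Genes that break down amino acids and pyrimidines were followed in hepatocellular carcinomas and in the liver tissue next to them. The set was a list of 39 named enzymes, taken by gene name and grouped by pathway, and it was drawn up with earlier results of these data known. Of these, 36 had an array probe that carried their symbol alone, out of 19938 genes with such a probe, and where a gene had several, the one with the highest mean of the 8 arrays was used. All 36 lay above the filter on low values (a mean log2 value of 4.597) and were among the 11963 genes tested. Of the remaining 3, Ahcy was covered only by 3 probes it shares with Gm4737, and Sds and Sdsl were not matched to a probe, so these genes are not analysed here. The probe of Mut is listed under the gene's current name, Mmut.

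The samples were 4 tumors and 4 pieces of adjacent liver of 4 male C57BL/6J mice (M24, M48, M50 and M60), 1 of each tissue per mouse. Each mouse had been injected with a vector made from adeno-associated virus (AAV) when 2 to 3 months old, and the tissues were collected at necropsy 18 months later, so the adjacent liver had been exposed to the vector as well, and mice without vector are not analysed here. The labels name neither the vector's cargo nor its promoter. Each sample was read on 1 array, and the precision is limited by the 4 mice, with 1 pair of tissues each. Differences are tumor minus adjacent liver of the same mouse on the log2 scale, where 1 unit is a 2-fold change. They carry the standard error (SE) and the Benjamini-Hochberg adjusted p of a limma fit over all tested genes with the mouse as a block, and the words rose and fell are kept for genes with an adjusted p under 0.05. Values of single samples are given in the order M24, M48, M50, M60.

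The liver is the main site where surplus amino acids are dismantled. Their carbon enters glucose, ketone bodies or the citric acid cycle, their nitrogen goes to urea, and the side products feed the synthesis of NAD, glutathione, taurine and methyl groups. Many of these enzymes are abundant in hepatocytes, rise with glucagon, glucocorticoids or a protein-rich diet, and are known as marks of a differentiated liver cell. Pyrimidine bases are degraded in the liver by a short route that also inactivates the drug fluorouracil.

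The set was lower in the tumors in most of its pathways. Of 36 genes 26 fell and 1 rose, which is 72.2% and 2.78% of the set, while over all tested genes 15.7% fell and 16.3% rose. The median difference was -0.72, against 0.001 over all tested genes. A fall of at least 2-fold was called for 9 members, 25% of the set, against 2.88% of all tested genes. These were Prodh, Hpd, Dpyd, Gnmt, Cth, Dpys, Aass, Afmid and Tat. For 22 members (61.1%) the 4 tumor values all lay below the 4 adjacent values, as they did for 15.6% of all tested genes. Every tested member of the tyrosine, proline, pyrimidine, and lysine and branched-chain groups fell, whereas 1 of 4 in the histidine group and 0 of 4 in the serine, glycine and transaminase group did, and the difference between the groups was not tested. In bulk tissue, fewer cells of a type and less RNA per cell cannot be told apart.

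**Figure D1:**
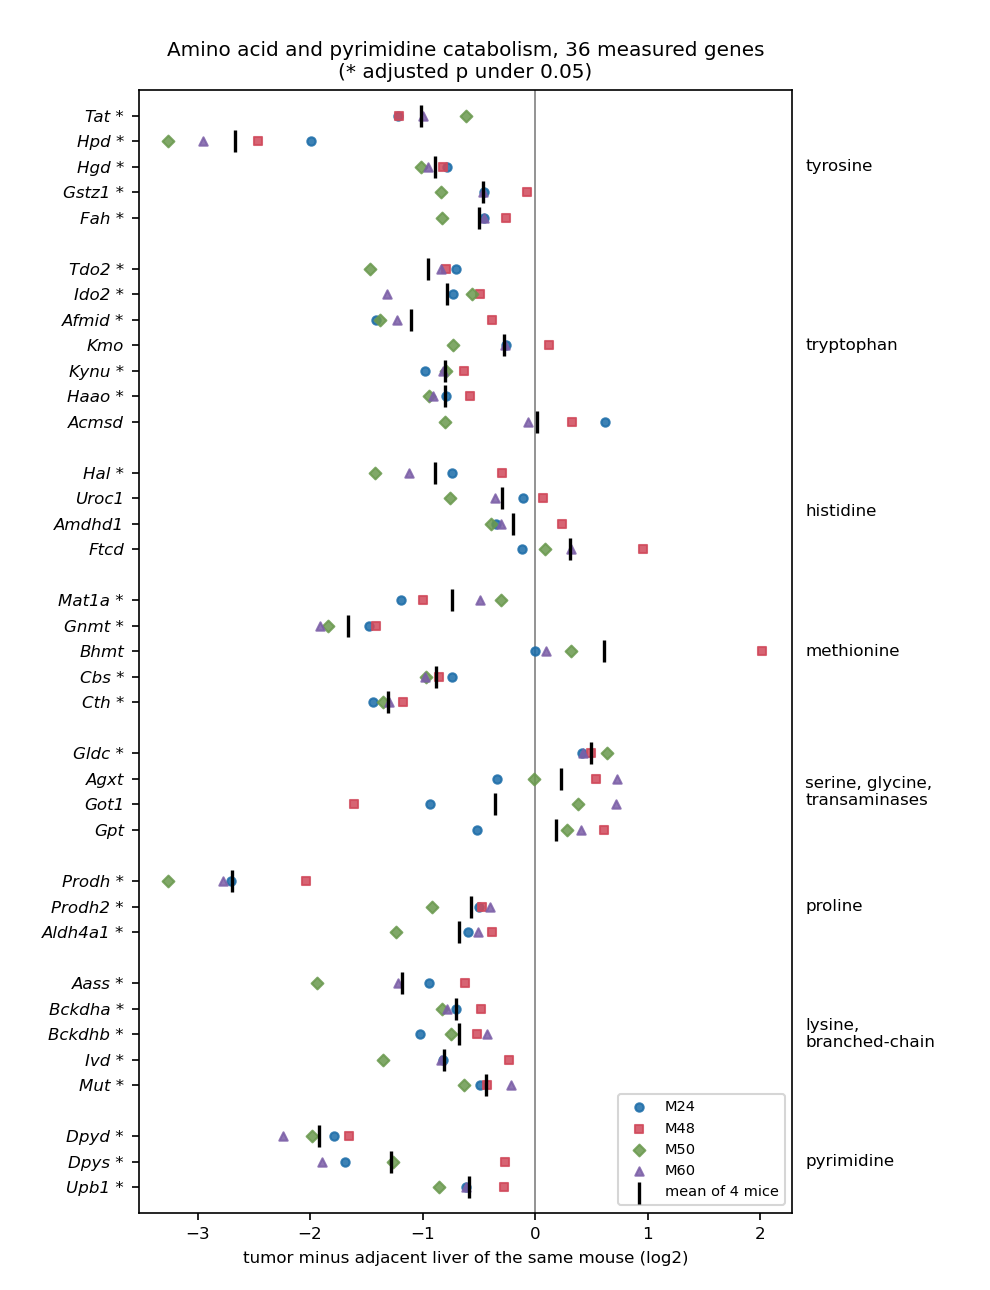
Tumor minus adjacent log2 difference of each of the 36 measured genes (rows, by pathway), with 1 symbol per mouse, a black bar at the mean of the 4 mice and an asterisk at genes with an adjusted p under 0.05. Most rows lie left of 0, from -2.69 for Prodh to 0.61 for Bhmt, and Hal (left of 0) and Gldc (right of 0) are the only rows of the histidine and the serine, glycine and transaminase groups with an asterisk.

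**Figure D2:**
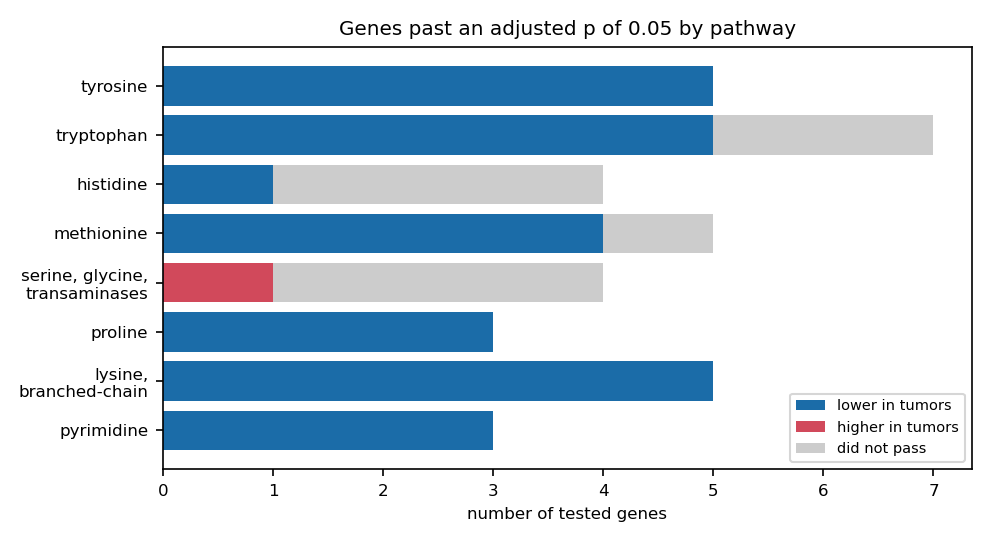
Number of tested genes in each pathway group that were lower in tumors (blue), higher in tumors (red) or did not pass the threshold (grey). The bars for tyrosine, proline, pyrimidine, and lysine and branched-chain genes are wholly blue, and the serine, glycine and transaminase bar holds no blue.

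The size of the fall differed among the mice. The median over the members was -0.74, -0.45, -0.84 and -0.70 in the 4 mice, and the number of members lower in tumor than in adjacent liver was 34, 27, 31 and 30 of 36. The adjacent liver of M48 stood apart, with the lowest of the 4 adjacent values in 22 of 36 members, against 34.2% of all tested genes. The tumor of M50 had the lowest of the 4 tumor values in 17 members, against 25.6% of all tested genes. Without M48 the fit called 27 members lower and 1 higher, and without M24 it called 20 lower and 2 higher. Of all 11963 tested genes it called 1722 lower and 1754 higher without M48, and 1307 lower and 1470 higher without M24.

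Markers of the tissue's cell types were read beside these changes. Among 6 hepatocyte markers, which include albumin (Alb) and transthyretin (Ttr), 1 rose and 0 fell (0 also at an unadjusted p under 0.05 in limma), and their summed log2 level was 80.98 to 82.03 in tumors and 80.6 to 81.4 in adjacent liver. Several of these genes are close to the brightest values on the arrays, where differences may be compressed. Of 6 endothelial markers 3 rose, of 7 stellate cell and fibroblast markers 4 rose and of 4 tested cholangiocyte markers 2 rose. For these counts and those below, 15.7% of all tested genes fell and 16.3% rose. Some of the marker calls were lost in other fits. The cholangiocyte marker Krt19 had an adjusted p of 0.0784 with no replicate block, 0.136 without M24 and 0.12 without M60. The stellate marker Pdgfrb had 0.0804 with no replicate block, and 0.146, 0.0982 and 0.138 without M24, M50 and M60. Apoa1, the hepatocyte marker that rose, had 0.125, 0.128 and 0.131 without M24, M48 and M60. The summed log2 levels in tumors and adjacent liver were 44.85 to 48.23 and 40.61 to 42.86 for endothelial markers, 59.94 to 62.82 and 51.33 to 57.89 for stellate markers, and 25.36 to 30.4 and 24.11 to 24.96 for 5 measured cholangiocyte markers. Of 6 macrophage markers 3 fell and 1 rose, with sums of 41.91 to 50.35 in tumors and 40.67 to 53.31 in adjacent liver. With no replicate block 0 of these 6 passed in either direction, also at an unadjusted p under 0.05 in limma. Of 4 tested T and NK cell markers 0 passed (3 were higher at an unadjusted p under 0.05). The 6 measured T and NK cell markers summed to 27.89 to 36.4 in tumors and 25.69 to 28.18 in adjacent liver. The 3 measured B cell markers, of which 1 was tested and did not pass, summed to 11.57 to 14.63 in tumors and 11.71 to 13.97 in adjacent liver. Cftr, Cd4, Ncr1, Cd79a and Ms4a1 lay below the filter value on average. The part of these cell types in the results was not tested.

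Tyrosine breakdown was lower at each of its 5 measured steps. Tat, the aminotransferase that opens the route, stood at 11.70, 11.60, 11.90 and 11.76 in tumors, against 12.92, 12.81, 12.50 and 12.77 in adjacent liver. The levels were tight within each tissue and did not overlap, and Tat fell by 1.01 (SE 0.124, adjusted p = 0.00206). The next enzyme, Hpd, converts hydroxyphenylpyruvate to homogentisate and had one of the largest falls of the set. Its tumor values were 10.89, 10.35, 9.52 and 9.76, against 12.89, 12.81, 12.78 and 12.71 in adjacent liver. The adjacent samples were nearly identical while the tumors spread, with M50 and M60 lowest, and the mean was 6.35-fold lower in tumors (difference -2.67, SE 0.201, adjusted p = 0.000441). Hgd, which opens the ring of homogentisate, had tumor values of 11.07, 10.98, 10.73 and 10.84 and adjacent values of 11.85, 11.81, 11.74 and 11.79. It fell by 0.89 (SE 0.0828, adjusted p = 0.000848), with no overlap.

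Smaller differences were measured at the 2 last steps of tyrosine breakdown. Fah, the hydrolase whose loss causes tyrosinemia in humans, had 11.31, 11.11, 10.65 and 11.08 in tumors and 11.76, 11.37, 11.48 and 11.54 in adjacent liver, and fell by 0.50 (SE 0.109, adjusted p = 0.0149). Gstz1, the isomerase just before it, had 10.83, 10.68, 10.30 and 10.77 in tumors and 11.27, 10.75, 11.14 and 11.23 in adjacent liver. Its groups overlapped, with the adjacent liver of M48 among the tumor values, and it fell by 0.46 (SE 0.128, adjusted p = 0.0358). Both genes were lower in tumor in each of the 4 mice, but their calls were lost in some fits with 1 mouse left out. The adjusted p of Fah was 0.0528 without M24 and 0.0563 without M60, and that of Gstz1 was 0.106 without M24, 0.0991 without M50 and 0.113 without M60. With quantile normalization the difference of Gstz1 was -0.25 (adjusted p = 0.117).

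In the kynurenine route, which breaks down tryptophan and can lead to NAD, 5 of 7 genes fell and 0 rose (5 and 0 at an unadjusted p under 0.05 in limma). Tdo2, the dioxygenase that starts the route in liver, had 11.21, 11.18, 10.94 and 11.52 in tumors and 11.91, 11.97, 12.41 and 12.36 in adjacent liver. The groups were separate, and Tdo2 fell by 0.95 (SE 0.14, adjusted p = 0.0037). Ido2, another dioxygenase of the same step, had 8.18, 7.28, 7.75 and 7.39 in tumors and 8.91, 7.77, 8.31 and 8.71 in adjacent liver. The groups overlapped although the tumor was lower in each mouse, and the fall of 0.78 (SE 0.148) had an adjusted p of 0.00916, or 0.0591 with no replicate block. Afmid, which hydrolyses formylkynurenine, had 7.30, 7.33, 7.45 and 7.40 in tumors and 8.72, 7.72, 8.84 and 8.63 in adjacent liver. The tumors were alike and the adjacent liver of M48 was closest to them, and Afmid fell by 1.10 (SE 0.18, adjusted p = 0.00536).

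Further along, Kynu (kynureninase) had 10.49, 10.36, 10.58 and 10.47 in tumors and 11.47, 10.99, 11.37 and 11.29 in adjacent liver. It fell by 0.80 (SE 0.0885, adjusted p = 0.00143) with no overlap. Haao, which makes the precursor of quinolinate, had 11.41, 10.81, 10.85 and 11.03 in tumors and 12.20, 11.39, 11.78 and 11.95 in adjacent liver. It also fell by 0.80 (SE 0.0931, adjusted p = 0.0017), and the tumor of M24 and the adjacent liver of M48 overlapped by a narrow margin. Kmo, the monooxygenase between kynurenine and Kynu, did not pass, at -0.28 (95% interval -0.62 to 0.05, adjusted p = 0.168). It had 10.84, 10.30, 10.39 and 10.78 in tumors and 11.10, 10.17, 11.12 and 11.06 in adjacent liver, where M48 lay below each of the tumors. Acmsd, which diverts the route away from NAD, stood at 0.02 (-0.51 to 0.55, adjusted p = 0.947), with differences of 0.62, 0.33, -0.80 and -0.06 in the 4 mice. Its direction thus differed among the mice.

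Other enzymes around these 2 routes came from a second list of 88 enzymes of the same pathways, of which 80 were measured and 78 tested. In tyrosine metabolism Qdpr, which regenerates the cofactor tetrahydrobiopterin, fell by 0.56 (SE 0.0828, adjusted p = 0.00376, and 0.0519 with no replicate block). Gch1, which makes that cofactor, fell by 0.48 (adjusted p = 0.0184), and its adjusted p was 0.0764 without M24, 0.0722 without M50 and 0.0727 without M60. In this group 2 of 4 fell and 0 rose, with the same counts at an unadjusted p under 0.05. Around tryptophan 1 of 5 fell and 2 rose. Aadat, an aminotransferase of kynurenine and of the lysine route, fell by 1.68 (SE 0.287, adjusted p = 0.00638). Qprt, which takes quinolinate into NAD synthesis, rose by 0.57 (SE 0.0989, adjusted p = 0.00676), with 10.26, 10.49, 10.52 and 10.60 in tumors and 9.99, 9.83, 9.80 and 9.98 in adjacent liver. Kyat1, another kynurenine aminotransferase, rose by 0.32 (adjusted p = 0.0316), with an adjusted p of 0.265 with no replicate block, and of 0.105 without M24, 0.101 without M50 and 0.0929 without M60.

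Histidine breakdown fell at its entry, and its 3 later measured steps did not pass. Hal, the ammonia lyase that commits histidine to breakdown, had 10.07, 10.25, 9.48 and 10.10 in tumors and 10.81, 10.54, 10.90 and 11.22 in adjacent liver. All tumors were below all adjacent samples, with the smallest gap in M48, and Hal fell by 0.89 (SE 0.18, adjusted p = 0.0114). The next enzyme, Uroc1 (urocanase), stood at -0.29 (95% interval -0.63 to 0.05, adjusted p = 0.165). Amdhd1, which follows it, stood at -0.20 (-0.49 to 0.10, adjusted p = 0.267). Without M48, where it was higher in tumor by 0.24, Amdhd1 had a difference of -0.34 and an adjusted p of 0.0335. Ftcd, which hands the last fragment of histidine to the folate pool, had 10.13, 9.89, 10.19 and 10.42 in tumors and 10.25, 8.93, 10.10 and 10.10 in adjacent liver. It stood at 0.31 (-0.10 to 0.72, adjusted p = 0.217), and the adjacent liver of M48 was the lowest sample. In this group 0 of 4 rose (0 at an unadjusted p under 0.05 in limma).

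Among 4 tested genes of histamine and of the folate steps after histidine breakdown, 2 fell and 0 rose (2 and 0 at an unadjusted p under 0.05). Mthfd1, a folate enzyme, fell by 0.50 (SE 0.0788, adjusted p = 0.00469). Aldh1l1, which releases formyl groups from folate, fell by 0.56 (adjusted p = 0.0289), with an adjusted p of 0.137 with no replicate block, and of 0.0862 without M24, 0.0641 without M50 and 0.0889 without M60.

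Methionine metabolism was lower at 4 of 5 measured steps, and 0 rose (4 and 0 at an unadjusted p under 0.05 in limma). Mat1a, the liver enzyme that makes the methyl donor S-adenosylmethionine, had 11.76, 12.16, 12.12 and 12.36 in tumors and 12.95, 13.16, 12.41 and 12.85 in adjacent liver. The groups were just separate, and the fall of 0.74 (SE 0.161, adjusted p = 0.0146) had an adjusted p of 0.0547 without M24. Gnmt, which uses that donor to methylate glycine and is abundant in normal liver, had 11.09, 10.86, 10.34 and 10.35 in tumors and 12.57, 12.27, 12.18 and 12.26 in adjacent liver. A gap of more than 1 log2 unit separated the groups, and Gnmt was 3.16-fold lower in tumors (difference -1.66, SE 0.113, adjusted p = 0.000339).

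The transsulfuration pair, which turns homocysteine into cysteine, fell together. Cbs, its first enzyme, had 10.43, 10.59, 10.44 and 10.51 in tumors and 11.17, 11.44, 11.42 and 11.49 in adjacent liver, and fell by 0.88 (SE 0.0831, adjusted p = 0.000875). Cth, its second enzyme, had 10.13, 10.66, 10.26 and 10.19 in tumors and 11.57, 11.83, 11.61 and 11.49 in adjacent liver, and fell by 1.31 (SE 0.0829, adjusted p = 0.000271). Both genes were uniform within each tissue and well apart between tissues. Bhmt, which remethylates homocysteine with betaine, behaved otherwise and did not pass (0.61, 95% interval -0.18 to 1.4, adjusted p = 0.207). It had 12.78, 12.58, 12.46 and 11.17 in tumors and 12.78, 10.56, 12.15 and 11.07 in adjacent liver. The level followed the mouse more than the tissue: both tissues were high in M24 and low in M60, and in M48 alone was the tumor far higher, by 2.02. Of its 3 probes, the 2 brightest gave 0.61 and 0.57 and the dim one, with means of 5.13 in tumors and 4.86 in adjacent liver, gave 0.27. Whether these probes also read near-identical copies was not tested.

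Among 13 other tested genes of methionine, choline and taurine metabolism 8 fell and 1 rose. Csad, which makes hypotaurine for taurine synthesis, had 7.18, 7.47, 8.0 and 7.40 in tumors and 10.54, 11.53, 10.92 and 11.40 in adjacent liver. The groups lay more than 2 log2 units apart (difference -3.58, SE 0.197, adjusted p = 0.000232). Dmgdh and Sardh, which strip the methyl groups from dimethylglycine and from the sarcosine that Gnmt makes, fell by 1.22 (SE 0.122, adjusted p = 0.00106) and 0.89 (SE 0.104, adjusted p = 0.00172).

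**Figure D3:**
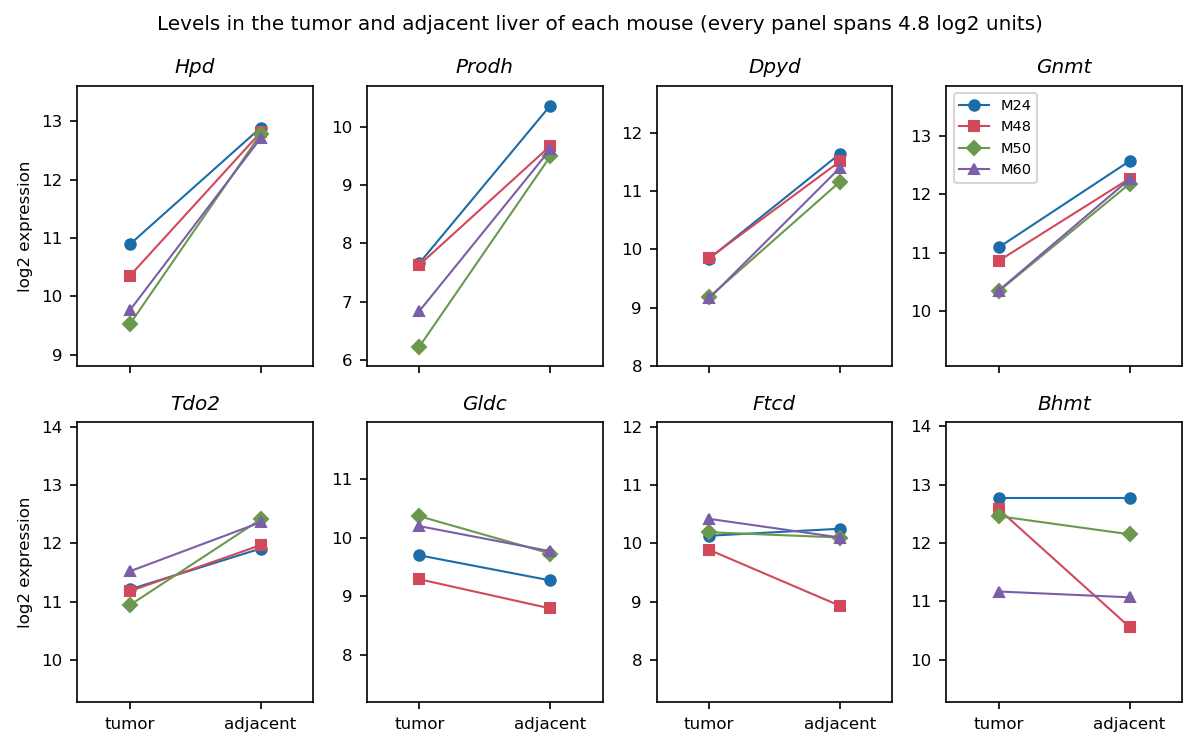
Log2 expression of 8 members in the tumor (left) and the adjacent liver (right) of each mouse, joined by a line per mouse; every panel spans the same range. Hpd, Prodh, Dpyd, Gnmt and Tdo2 are lower in each tumor, Gldc is higher in each tumor by 0.42 to 0.64, and the adjacent liver of M48 is the lowest adjacent sample for Ftcd (8.93) and Bhmt (10.56).

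The serine, glycine and transaminase group had 4 measured genes, of which 0 fell and 1 rose (0 and 1 at an unadjusted p under 0.05 in limma). Gldc, the decarboxylase of the mitochondrial glycine cleavage system, had 9.70, 9.29, 10.37 and 10.20 in tumors and 9.27, 8.79, 9.73 and 9.77 in adjacent liver. The mice differed in level and the groups overlapped, but the tumor exceeded its own adjacent liver by 0.42, 0.50, 0.64 and 0.43. Gldc rose by 0.50 (SE 0.0797, adjusted p = 0.00502), and with no replicate block, which ignores the pairs, its adjusted p was 0.221. Agxt, which detoxifies glyoxylate by making glycine, stood at 0.23 (95% interval -0.20 to 0.66, adjusted p = 0.381). Gpt, alanine aminotransferase, stood at 0.19 (-0.24 to 0.63, adjusted p = 0.467), with -0.52 in M24 and 0.28 to 0.61 in the other mice. Without M24 it had a difference of 0.43 and an adjusted p of 0.0454.

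Got1, the cytosolic aspartate aminotransferase, had 10.0, 9.37, 10.01 and 10.46 in tumors and 10.93, 10.98, 9.63 and 9.74 in adjacent liver. It was lower in tumor in M24 (-0.93) and M48 (-1.61) and higher in M50 (0.38) and M60 (0.72), and its mean difference was -0.36 (95% interval -1.26 to 0.54, adjusted p = 0.509). The adjacent livers of M24 and M48 were the high samples.

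Of 17 other tested genes of serine, glycine and glyoxylate metabolism and transamination 5 were called higher and 3 fell. Of these 5, Phgdh and Psat1 had adjacent means under the filter value of 4.597 and passed the filter only through the tumors. Without them 3 genes were called higher, and their levels are given as a description, with no difference or test of Phgdh or Psat1. Phgdh, which opens serine synthesis, had 5.75, 6.41, 6.70 and 6.50 in tumors and 4.54, 4.65, 4.52 and 4.08 in adjacent liver. Psat1, the next enzyme, had 6.25, 6.89, 7.93 and 8.06 in tumors and 4.60, 4.74, 4.36 and 4.47 in adjacent liver, and the tumor values of both genes lay above the adjacent values. Psph, which completes the route and was named after its values were seen, rose by 0.85 (SE 0.117, adjusted p = 0.00301). Srr, which racemizes or dehydrates serine, fell by 1.39 (SE 0.138, adjusted p = 0.00105).

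Proline breakdown fell at each of its 3 measured steps. Prodh, the mitochondrial dehydrogenase that starts it, had 7.66, 7.63, 6.23 and 6.84 in tumors and 10.36, 9.67, 9.49 and 9.61 in adjacent liver. The tumors of M50 and M60 were lowest, no values overlapped, and Prodh was 6.47-fold lower in tumors (difference -2.69, SE 0.184, adjusted p = 0.000339). Prodh2, the related enzyme for hydroxyproline, had 8.17, 7.90, 7.78 and 8.54 in tumors and 8.68, 8.37, 8.70 and 8.94 in adjacent liver, and fell by 0.57 (SE 0.108, adjusted p = 0.00888) with overlapping groups. Aldh4a1, which oxidizes the product of either enzyme, had 9.83, 9.60, 8.90 and 9.67 in tumors and 10.44, 9.99, 10.13 and 10.18 in adjacent liver, and fell by 0.68 (SE 0.146, adjusted p = 0.0139). The tumor of M50 was the lowest sample for each of these genes. In this group 0 rose (0 at an unadjusted p under 0.05 in limma).

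Genes that border on proline moved in opposite directions. Oat, ornithine aminotransferase, had 8.69, 8.54, 6.63 and 8.41 in tumors and 11.30, 11.50, 10.52 and 10.89 in adjacent liver (difference -2.98, SE 0.226, adjusted p = 0.000444). Aldh18a1, which makes the precursor of proline from glutamate, had 7.07, 7.13, 7.79 and 7.20 in tumors and 4.92, 5.71, 4.79 and 4.88 in adjacent liver. It rose by 2.22 (SE 0.234, adjusted p = 0.00122), with no overlap. Hoga1, the last enzyme of hydroxyproline breakdown, fell by 0.44 (adjusted p = 0.0186), with an adjusted p of 0.0778 without M24 and 0.0847 without M60. In all 2 of 5 other tested genes around proline fell and 1 rose.

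Lysine and branched-chain amino acid breakdown fell in 5 of 5 measured members, with 0 rising (0 at an unadjusted p under 0.05 in limma). In each of them all 4 tumor values lay below all 4 adjacent values, as they did for 15.6% of all tested genes. Aass, the bifunctional enzyme that opens lysine breakdown, had 10.02, 10.30, 8.92 and 9.68 in tumors and 10.96, 10.93, 10.86 and 10.89 in adjacent liver. The adjacent samples were alike and the tumors spread, with M50 lowest, and Aass fell by 1.18 (SE 0.202, adjusted p = 0.00642). Bckdha and Bckdhb encode the subunits of the decarboxylase in the branched-chain ketoacid dehydrogenase complex, which commits leucine, isoleucine and valine to breakdown. Bckdha had 9.23, 9.43, 9.34 and 9.45 in tumors and 9.93, 9.91, 10.16 and 10.23 in adjacent liver, and fell by 0.70 (SE 0.0888, adjusted p = 0.00235). Bckdhb had 8.84, 9.21, 8.68 and 9.02 in tumors and 9.86, 9.74, 9.43 and 9.45 in adjacent liver, and fell by 0.68 (SE 0.114, adjusted p = 0.00598).

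Downstream, Ivd of leucine breakdown had 9.43, 9.45, 9.08 and 9.47 in tumors and 10.25, 9.68, 10.43 and 10.31 in adjacent liver, a fall of 0.81 (SE 0.17, adjusted p = 0.0129). Mut, the methylmalonyl-CoA mutase at the end of valine and isoleucine breakdown, had 9.83, 9.63, 9.69 and 10.03 in tumors and 10.32, 10.06, 10.32 and 10.24 in adjacent liver, a fall of 0.44 (SE 0.0928, adjusted p = 0.0131). Without M24 the adjusted p was 0.0532 for Ivd and 0.0566 for Mut. Among 20 other tested genes of these routes 13 fell and 1 rose, with a median of -0.72. Dhtkd1, which acts late in lysine breakdown, fell by 2.10 (SE 0.141, adjusted p = 0.00033). Gcdh, the glutaryl-CoA dehydrogenase after it, fell by 1.22 (SE 0.0967, adjusted p = 0.000489). Ppm1k, the phosphatase that activates the branched-chain complex, had 7.27, 8.34, 8.04 and 7.61 in tumors and 9.57, 9.81, 9.77 and 9.95 in adjacent liver. It fell by 1.96 (SE 0.162, adjusted p = 0.000565). Its opposing kinase, Bckdk, named after its values were seen, stood at 0.02 (95% interval -0.19 to 0.23, adjusted p = 0.873).

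Pyrimidine breakdown fell at its 3 steps. Dpyd, the dehydrogenase that starts it and the main inactivator of fluorouracil, had 9.84, 9.85, 9.18 and 9.16 in tumors and 11.64, 11.51, 11.16 and 11.40 in adjacent liver. A gap of more than 1 log2 unit lay between the tissues, and Dpyd was 3.78-fold lower in tumors (difference -1.92, SE 0.112, adjusted p = 0.000232). Dpys, the dihydropyrimidinase, had 8.28, 9.00, 8.98 and 8.03 in tumors and 9.97, 9.27, 10.24 and 9.92 in adjacent liver. The difference was -0.27 in M48 and -1.26 to -1.89 in the other mice, and Dpys fell by 1.28 (SE 0.253, adjusted p = 0.0106). Its adjusted p was 0.0509 without M24 and 0.00127 without M48. Upb1, which releases beta-alanine, had 10.32, 10.35, 10.22 and 10.39 in tumors and 10.92, 10.63, 11.07 and 11.01 in adjacent liver. The tumors were nearly uniform, and Upb1 fell by 0.59 (SE 0.107, adjusted p = 0.00794). In this group 0 rose (0 at an unadjusted p under 0.05 in limma).

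Of 10 other tested pyrimidine genes 3 fell and 2 rose. Upp2, a liver uridine phosphorylase that feeds uracil into this route, had 6.33, 6.27, 6.13 and 5.21 in tumors and 9.51, 9.31, 8.36 and 8.66 in adjacent liver (difference -2.97, SE 0.192, adjusted p = 0.000292). Abat, which removes the amino group of beta-alanine and of GABA, fell by 1.52 (SE 0.2, adjusted p = 0.00261). On the side of synthesis, Ctps, which makes CTP, rose by 0.95 (SE 0.144, adjusted p = 0.00421). Other genes on that side, named after their values were seen, did not rise. Cad (0.06, adjusted p = 0.733), Umps (0.42, adjusted p = 0.0828), Dhodh (-0.23, adjusted p = 0.0907) and Uck2 (0.17, adjusted p = 0.393) did not pass. Without M24 the adjusted p of Umps was 0.0346. Uck1 fell by 0.51 (adjusted p = 0.0105, and 0.0514 without M60). Beside Ctps the gene that rose was Cda, also named after its values were seen, by 0.51 (SE 0.0845, adjusted p = 0.00583).

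**Figure D4:**
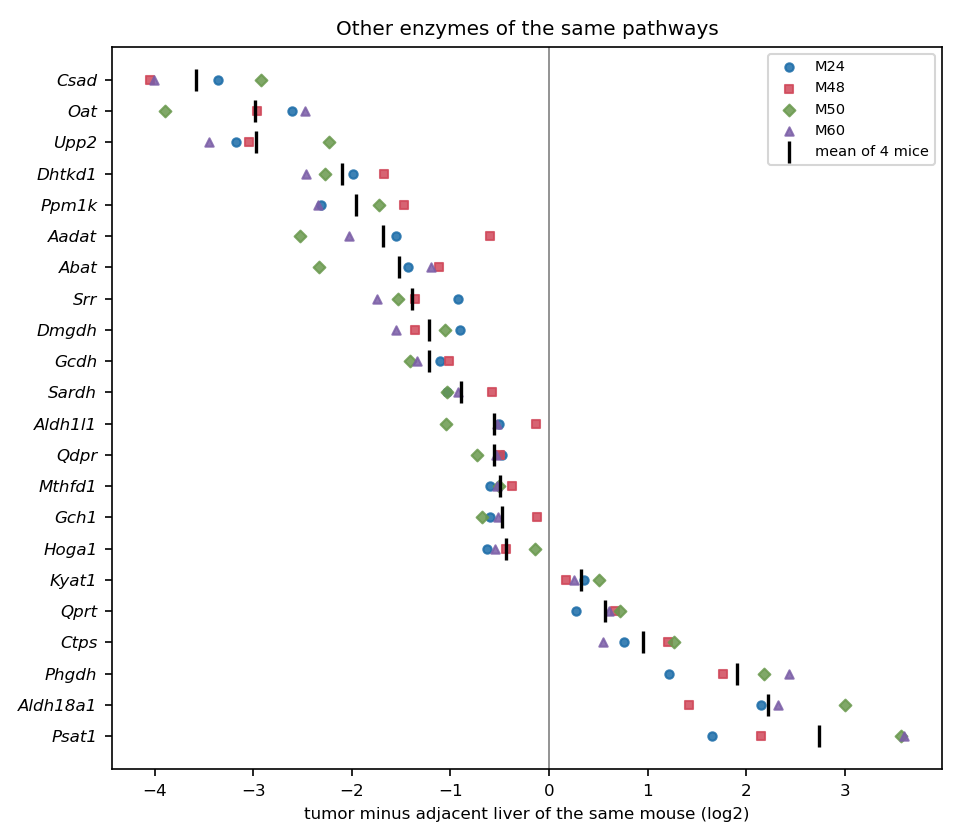
Tumor minus adjacent log2 difference of 22 other enzymes of the same pathways, up to 3 with the smallest p in each pathway group, with 1 symbol per mouse and a black bar at the mean. Csad, Oat and Upp2 lie furthest left. Psat1 and Phgdh passed the filter only through the tumors, with adjacent means under the filter value of 4.597. Their rows are drawn as a description, with uncertain places, and are not read as a result. Aldh18a1 lies right of 0 in each mouse.

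Over the whole second list, 34 of 78 tested enzymes fell (43.6%) and 12 were called higher (15.4%), with a median of -0.29. The 12, the 15.4% and the median include Phgdh and Psat1, without which 10 were called higher. Among all tested genes 15.7% fell and 16.3% rose, so the share called higher, with both genes counted, was near that of all genes. The difference from the 72.2% of members that fell was not tested.

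A list of 10 hormone receptors and transcription factors known to regulate these enzymes had 9 measured genes. Of these 5 fell (55.6%) and 0 rose (5 and 0 at an unadjusted p under 0.05 in limma), against 15.7% and 16.3% of all tested genes. Klf15, which is known to induce amino acid breakdown in fasting, had 8.36, 8.16, 7.88 and 8.15 in tumors and 9.23, 9.23, 9.18 and 9.14 in adjacent liver, and fell by 1.06 (SE 0.0951, adjusted p = 0.000744). Cebpa, a factor of the differentiated hepatocyte, had 8.98, 9.01, 9.22 and 9.35 in tumors and 9.63, 9.53, 9.73 and 9.95 in adjacent liver, and fell by 0.57 (SE 0.0758, adjusted p = 0.00271). The groups were separate for both genes. Smaller falls were those of the glucagon receptor Gcgr (-0.44, adjusted p = 0.0128), Hnf4a (-0.35, adjusted p = 0.0253) and Cebpb (-0.51, adjusted p = 0.0289). The call of Gcgr was lost without M24 (adjusted p = 0.0562), that of Cebpb without M24 (0.107), M48 (0.0822) or M60 (0.105), and that of Hnf4a without any single mouse (0.0531 to 0.0774). The glucocorticoid receptor Nr3c1 stood at -0.11 (adjusted p = 0.4), Foxa2 at -0.14 (adjusted p = 0.293), Creb3l3 at -0.14 (adjusted p = 0.452) and Ppargc1a at -0.53 (adjusted p = 0.119).

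The promoters of the members were read as well, because most of these genes moved together. RefSeq windows from 250 bases before to 50 bases after the start (build GRCm38.p6) were found for 29 of the 36 measured members, in 31 windows. They were searched for short cores of factors known from liver genes, on both strands except for the TATA box, which was searched on the gene's own strand. The 4 windows below are those of the 2 members with the largest falls, Prodh and Hpd, of Hgd, a falling member with 2 matches, and of Ftcd, which did not pass. Letters in capitals are matches, and the rest is in lower case.
Prodh promoter (chr16:18089141-18089440, minus strand): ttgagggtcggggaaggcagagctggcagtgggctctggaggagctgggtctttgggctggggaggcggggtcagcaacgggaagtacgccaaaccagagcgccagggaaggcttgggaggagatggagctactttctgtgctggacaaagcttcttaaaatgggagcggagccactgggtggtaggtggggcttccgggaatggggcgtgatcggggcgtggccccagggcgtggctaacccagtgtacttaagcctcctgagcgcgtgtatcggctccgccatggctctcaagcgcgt
Hpd promoter (chr5:123182674-123182973, minus strand): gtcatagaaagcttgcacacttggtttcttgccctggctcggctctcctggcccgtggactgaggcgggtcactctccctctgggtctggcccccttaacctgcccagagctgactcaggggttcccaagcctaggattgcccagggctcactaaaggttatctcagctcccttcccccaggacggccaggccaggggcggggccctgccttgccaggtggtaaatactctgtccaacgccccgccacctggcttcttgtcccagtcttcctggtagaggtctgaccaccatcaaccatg
Hgd promoter (chr16:37579903-37580202, plus strand): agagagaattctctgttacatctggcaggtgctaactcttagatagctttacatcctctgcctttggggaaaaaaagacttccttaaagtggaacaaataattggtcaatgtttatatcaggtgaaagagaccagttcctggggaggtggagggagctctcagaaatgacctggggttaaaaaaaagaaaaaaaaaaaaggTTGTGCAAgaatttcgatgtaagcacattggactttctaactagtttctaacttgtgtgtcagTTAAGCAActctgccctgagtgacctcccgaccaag
Ftcd promoter (chr10:76575398-76575697, plus strand): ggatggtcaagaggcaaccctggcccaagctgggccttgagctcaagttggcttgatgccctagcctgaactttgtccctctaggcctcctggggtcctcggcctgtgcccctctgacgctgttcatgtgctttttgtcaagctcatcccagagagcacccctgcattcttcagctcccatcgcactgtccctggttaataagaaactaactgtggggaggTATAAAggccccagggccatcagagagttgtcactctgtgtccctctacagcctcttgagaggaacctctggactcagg

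The windows of Prodh and Hpd held none of the cores searched. In the Hgd window the capitals mark the C/EBP core TTGCNNAA, read on the opposite strand, which began 49 bases before the start and again at base 15 after it. In the Ftcd window they mark the TATA box TATAAA, 29 bases before the start. Among the 31 windows the C/EBP core was present in 4 (12.9%), against 10.8% of the 32851 windows of all genes. The core TGTTCT, bound by the glucocorticoid receptor, was present in 5 (16.1%, against 19% of all windows) and TATAAA in 2 (6.45%, against 8.32%). The HNF4 core CAAAGTCCA and the FOXA core TGTTTAC were in 0 of the 31 windows, and in 0.475% and 3.65% of all windows. A match in letters is not a bound site, and other sites of these factors may lie outside the windows.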

How the data were processed

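The data are log2 values deposited by the authors for 28874 probes on 8 arrays; the base was read from their range, 1.918 to 14.495. Array medians were 4.888 to 5.006, so the values were taken as normalized. MAS5 appears in the submitters' processing notes without a role or version. How background, summarization and normalization were handled is not given in the sources used here. Without detection calls or scan dates, batches were not tested. Probes were named through the platform annotation: 21789 had 1 gene symbol, 1621 several and 5464 no entry. Symbols were checked by gene ID against RefSeq (GRCm38.p6), where 21698 matched.

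The 40% of genes with the lowest mean were left out. The paired difference was fitted with limma 3.58.1 in R 4.3.3 (lmFit, eBayes with a trend; 3 residual and 3.643 prior degrees of freedom; two-sided), adjusted by Benjamini-Hochberg over 11963 genes. The mouse was a block because the sample titles name a tumor and an adjacent sample for each mouse; deviations from the group means correlated at 0.0986 to 0.421 within mice and -0.378 to 0.189 between them. On simulated data with noise from the fitted variances, the fit recovered 65.7% of 1.5-fold changes and 98% of 2-fold changes. A change of 1.5-fold or less can thus go uncalled. All members are named, with the regulators and, per pathway, up to 3 other called enzymes with the smallest p. Alternatives were no block, other filters, quantile or median scaling, averaged probes, other variance moderation and leaving out each mouse. The members and lists were chosen with earlier results of these data known.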

Additional observations from a re-analysis of the deposited data

Results flagged for a closer look

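In 5 of 108 groups of 4 values (tumor values, adjacent values and differences of each member), 1 value stood far from the other 3 relative to the range; chance gives about 1 in 20 such groups. In 4 of the 5 the value belonged to M48. Its adjacent liver was low for Kmo (10.17, with the others at 11.06 to 11.12) and for Ftcd (8.93, against 10.10 to 10.25). Its difference was high for Amdhd1 (0.24, against -0.39 to -0.30) and for Bhmt (2.02, against -0.00 to 0.32). The tumor of M50 was low for Ivd (9.08, against 9.43 to 9.47 in the other tumors).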

How the results depend on the processing

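Of 27 called members, 19 kept their call and direction under all 12 alternatives, and 8 lost it under at least 1, none with a change of direction. The count of members lower in tumors was 25 with no replicate block and with quantile normalization, 26 with other filters, median centring, averaged probes, no variance trend or robust moderation, and 20 to 27 with 1 mouse left out. Members higher in tumors numbered 0 with no replicate block (0 also at an unadjusted p under 0.05 in limma), where Gldc lost its call, and 1 to 2 with 1 mouse left out, where Gpt passed without M24. With no replicate block Ido2 lost its call too, and 34 members kept theirs or stayed uncalled. Leaving out M24 cost 6 calls among the members, more than any other mouse, and fewer samples enter each such fit. Lower calls over all 11963 tested genes numbered 1874 with all mice, and 1307, 1722, 1173 and 1070 without M24, M48, M50 and M60. There the loss was larger without M50 or M60 than without M24. The median of the members was -0.62 with quantile normalization and -0.82 with median centring, which shifted the median of all tested genes to -0.042 and -0.098. Other pathway enzymes lower in tumors numbered 27 to 38 over the alternatives and those higher 9 to 15, with Phgdh and Psat1 counted where they were called. Detection above background could not be tested.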
